A study of Mus musculus with 444 samples.

Results

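The chemokine genes described here are 9 genes that encode secreted signals to immune and stromal cells: Cxcl1, Cxcl2, Cxcl15, Ccl2, Ccl7, Cxcl12, Cxcl14, Cx3cl1 and the macrophage growth factor Csf1. They were chosen by name and matched through the Entrez gene identifiers of the count files, and all 9 were found among the 25136 annotated genes that were kept. Single cells were captured on the Fluidigm C1, a microfluidic device, from the total mammary epithelium of female FVB/NJ mice in puberty (about 5 weeks old by the study's methods, although the deposited pubertal files are named for 4 weeks) and in adult life (10 weeks old). Each sort pooled several mice, 6 for puberty and 4 for the adult, and took cells negative for TER119, CD31 and CD45, which mark erythroid, endothelial and white blood cells, and positive for the epithelial surface protein CD24. Of 221 pubertal and 223 adult cells, 171 and 152 had at least 100000 read pairs and 1500 genes and were retained. The labels tie no cell to an animal or a sort, so each stage counted as 1 sample although the study describes 3 independent experiments, no test was possible between stages, and every interval below covers counting error alone.

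Chemokines are small secreted proteins that direct cells along gradients by binding receptors on their surface. Cxcl1, Cxcl2 and Cxcl15 draw neutrophils, Ccl2 and Ccl7 draw monocytes, Cxcl12 binds Cxcr4 and the scavenging receptor Ackr3, and Cx3cl1 is held on the membrane until proteases release it. In the mammary gland, macrophages that depend on Csf1 gather around the growing ducts. The epithelium itself has an outer layer of basal, myoepithelial cells and an inner layer of luminal cells, which are either hormone-sensing or progenitor-like.

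The genes lie on 6 mouse chromosomes (GRCm38.p6). Cxcl15 (chr5:90794534-90803067), Cxcl1 (chr5:90891245-90893121) and Cxcl2 (chr5:90903899-90905938) stand in 1 stretch of chromosome 5, and Ccl2 and Ccl7 are neighbours on chromosome 11. The others are Csf1 (chr3:107741048-107760469), Cxcl12 (chr6:117168535-117181368), Cx3cl1 (chr8:94772180-94782427) and Cxcl14 (chr13:56288643-56296811). Counts were summed over the exons of each gene.

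The promoters of the neutrophil-drawing pair and of Csf1 are shown because they alone among the windows found held a match to the NF-kB motif, the site of a factor known to drive inflammatory genes. RefSeq windows of 250 bases before to 50 after the gene start (GRCm38.p6) were found for 7 of the 9 genes, not for Ccl2 and Ccl7. The 250 bases before the start are printed 5′ to 3′ on the gene's strand, with matches to the NF-kB motif in capitals.
Cxcl1, chr5:90890995-90891244, plus strand: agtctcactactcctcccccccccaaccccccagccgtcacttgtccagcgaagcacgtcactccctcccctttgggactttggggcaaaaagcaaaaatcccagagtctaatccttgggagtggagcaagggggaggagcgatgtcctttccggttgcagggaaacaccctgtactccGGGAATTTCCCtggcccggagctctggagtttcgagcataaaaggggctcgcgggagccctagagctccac
Cxcl2, chr5:90903649-90903898, plus strand: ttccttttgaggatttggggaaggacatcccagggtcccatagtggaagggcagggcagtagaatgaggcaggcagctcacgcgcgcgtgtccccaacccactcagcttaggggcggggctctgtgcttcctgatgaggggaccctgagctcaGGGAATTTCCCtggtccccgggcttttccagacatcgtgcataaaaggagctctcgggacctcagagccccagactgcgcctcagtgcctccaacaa
Csf1, chr3:107760470-107760719, minus strand: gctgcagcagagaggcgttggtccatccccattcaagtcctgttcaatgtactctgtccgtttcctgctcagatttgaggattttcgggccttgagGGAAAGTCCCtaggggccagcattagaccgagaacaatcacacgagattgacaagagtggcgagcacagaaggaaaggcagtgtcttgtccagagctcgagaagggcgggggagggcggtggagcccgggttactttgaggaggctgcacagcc
In Cxcl1 the match lay at positions -71 to -62 from the start on the gene's strand and at -70 to -61 on the other strand, so the overlapping matches are 1 stretch of letters. In Cxcl2 it lay at -97 to -88, with the other strand at -96 to -87. The stretch in capitals reads the same in both genes. Csf1 had 1 match, on the other strand and farther from the start. On both strands together 4.51% of 32851 RefSeq windows of the same length held this motif. The AP-1 motif TGANTCA, searched on both strands, was in none of the 7 windows and in 7.81% of all, and TATAAA, searched on the gene's strand, was in Cxcl15 (-27 to -22) and Cx3cl1 (-6 to -1) and in 8.32% of all. A match describes letters and not a bound site.

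Retained cells were thinned to 100000 read pairs each, so that 1 read is 10 CPM (a cell's reads of a gene scaled to a fixed total). They were sorted into classes by marker genes, none of them a chemokine, with CPM taken before thinning. A cell was basal-marked or luminal-marked where the mean log2(CPM + 1) of 8 basal or 8 luminal markers led by 1 or more, and fibroblast-marked where Col1a1, a collagen, and Pdgfra, a growth factor receptor, both reached 10 CPM. This gave 125 basal-marked, 158 luminal-marked, 6 fibroblast-marked and 34 remaining cells, with 29 cells within 0.5 of a class limit. Krt14, a basal keratin, had reads in 95.2% of basal-marked and 37.3% of luminal-marked cells, and Krt18, a luminal keratin, in 83.2% and 99.4%. Luminal-marked cells were split by the sign of hormone-sensing minus progenitor markers into 115 hormone-sensing and 43 progenitor cells. The adult cells held more of the basal-marked class, 82 of 152 cells against 43 of 171 in puberty.

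The cells were not all epithelial by their markers, and this bears on every sum given here. Over the 8 fibroblast markers together, 37 retained cells reached 1000 CPM, and 6 of these were fibroblast-marked. In 12 cells the 5 endothelial markers together reached 500 CPM, and in 1 cell the 9 leukocyte markers did. These limits were set after the data were seen. Together they marked 46 cells (14.2% of 323), 24 pubertal and 22 adult, of which 16 were classed as basal-marked and 14 as luminal-marked. In 33 of the 46 the luminal or the basal markers also summed to 1000 CPM or more, so fibroblast or endothelial transcripts often stood beside epithelial ones in 1 library. Doublets were not called. Ptprc, which encodes CD45, had no read in any retained cell, and Pecam1, which encodes CD31, had reads in 17.

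Nearly every cell carried some transcript of these genes. In 292 of 323 cells (90.4%; 95% exact binomial interval 86.7 to 93.4) at least 1 of the 9 had a read, in 84.8% of pubertal and 96.7% of adult cells. The median cell held reads of 2 members and no cell held more than 7. Per kilobase of exon, the level over all pubertal cells was highest for Cxcl1 (396 CPM per kb) and Ccl2 (329), followed by Ccl7 (64.7), Cxcl15 (44.0), Cxcl2 (22.7), Cxcl14 (16.7), Cx3cl1 (6.21), Cxcl12 (5.85) and Csf1 (5.73). In the adult it was highest for Ccl2 (459 CPM per kb), Ccl7 (345) and Cxcl1 (239), then Cxcl15 (107), Cxcl14 (74.5), Cxcl2 (74.4), Csf1 (24.1), Cx3cl1 (18.4) and Cxcl12 (8.25). Cxcl14 and Cxcl2 in the adult could not be ordered beyond counting error, nor could Cx3cl1, Cxcl12 and Csf1 in puberty. A high level did not mean many cells: Cxcl14 was the most widely detected of the 9 over both stages together, though in puberty Cxcl1 was read in as many cells, and the levels of Ccl2 and Ccl7 came from few cells.

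The reads of the monocyte-drawing pair lay almost wholly in the 46 cells with fibroblast, endothelial or leukocyte markers. These cells held 85.0% of pubertal and 92.3% of adult Ccl2 reads, and 92.4% and 99.2% of Ccl7 reads. For Cxcl12 they held 73.7% and 75.8%, for Csf1 27.3% and 55.6%, and for Cxcl1 44.5% and 54.8%. Cxcl2 was lower, at 11.2% of pubertal and 34.0% of adult reads. The other 3 genes were below the 14.2% that these cells make up of the retained cells: Cxcl15 at 9.86% and 8.25%, Cxcl14 at 9.02% and 7.44%, and Cx3cl1 at 5.69% and 3.99%. The genes thus fell along a range from those read mostly in cells with fibroblast, endothelial or leukocyte markers to those read mostly in cells without them. The 1 cell with leukocyte markers held 28.3% of all Ccl2 reads and 59.6% of all Ccl7 reads. According to the study's methods, captured cells were viewed under a microscope before their RNA was copied, and the source of these reads was not tested.

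**Figure D1:**
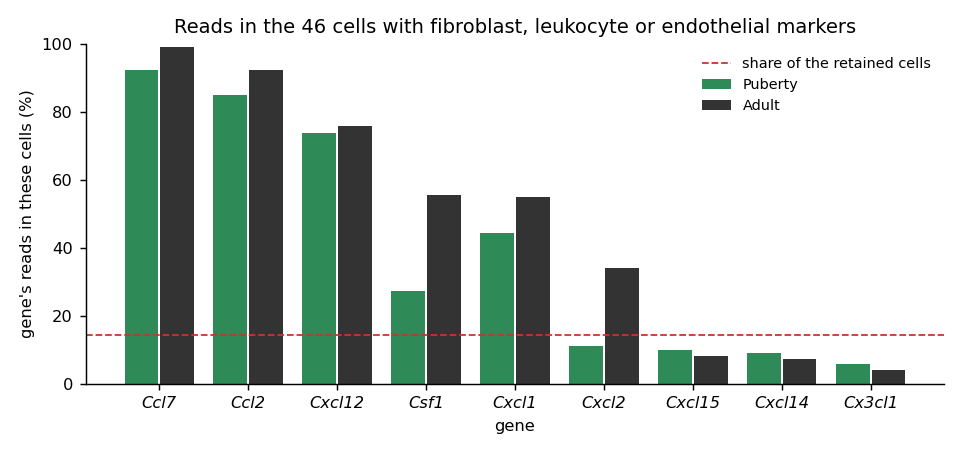
Share of each gene's thinned reads (vertical axis, percent) that lay in the 46 retained cells with fibroblast, leukocyte or endothelial markers, by stage, with the genes in order of the share over both stages. The dashed line is the share of retained cells that these 46 make up, 14.2%; Ccl7 and Ccl2 stand far above it and Cxcl14 and Cx3cl1 below it in both stages.

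Ccl2, the main attractant of monocytes through the receptor Ccr2, had reads in 19.3% of cells in puberty (13.7 to 26.0) and 32.9% in the adult (25.5 to 41.0). Without thinning the shares were 29.8% and 42.8%. Summed over all cells its level was 265 (puberty) and 370 CPM (adult). In 12 cells it reached 1000 CPM, 8 pubertal and 4 adult, while the median adult cell with a read had 20 CPM, or 2 reads. The pubertal cells with most Ccl2 were number 29 (13590 CPM), number 54 (10750 CPM) and number 107 (4640 CPM). In these the fibroblast markers summed to 38320, 20960 and 30630 CPM. The adult cells with most were number 30 (28780 CPM), number 28 (11970 CPM) and number 202 (8070 CPM), and together they held most of the adult reads. Cells 28 and 202 had fibroblast sums of 23640 and 11940 CPM.

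Adult cell 30 stood apart from all others. It held 51.2% of adult Ccl2 reads and 72.2% of adult Ccl7 reads, with 30330 CPM of Ccl7, and it had the most Cxcl2 (3550 CPM) of all cells and the most Cxcl1 (4110 CPM) of the adult cells. Its leukocyte markers summed to 4860 CPM, while every other retained cell stayed below 500 CPM, pubertal cells at 100 CPM or less. These were Fcer1g (2920 CPM), Lyz2 (1120 CPM), Tyrobp (620 CPM) and Cd68 (200 CPM), which myeloid cells express, while Ptprc, Adgre1 and Itgam had no read. Its luminal and basal markers summed to 110 and 160 CPM. It was nevertheless classed as basal-marked, since its basal score led by 1.52, so the sums over basal-marked cells are given below also without it.

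Ccl7 is encoded next to Ccl2 on chromosome 11 (chr11:82045712-82047525, with Ccl2 at chr11:82035577-82037452). It had reads in 12.9% of cells in puberty (8.24 to 18.8) and 7.24% in the adult (3.67 to 12.6), or 21.1% and 11.8% without thinning. Its summed level was 51.8 (puberty) and 276 CPM (adult). In puberty no cell dominated, and the highest were number 40 (1990 CPM), number 29 (1970 CPM) and number 107 (1910 CPM), all with fibroblast sums of 15510 CPM or more. Of the 33 cells with Ccl7, 18 also had Ccl2 (54.5%), and these were 21.7% of the 83 cells with Ccl2. Across the 323 cells the gene most like Ccl2 in log2(CPM + 1), among 7567 compared, was Ccl7 (Pearson r = 0.51). Next were Fstl1 (0.39) and Vim (0.38), which the study counts among basal genes. These correlations are across cells that share depth and library, and carry no test.

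Without the 46 cells, low levels of Ccl2 remained and were those of basal-marked cells. In the 109 basal-marked cells left, 33.9% had a read (25.1 to 43.6) and the level was 84.7 CPM (exact Poisson 79.3 to 90.3). In the 144 luminal-marked cells left, 15.3% had a read (9.83 to 22.2) at 6.32 CPM (5.09 to 7.76). The basal-marked level was 159 (puberty) and 49.7 CPM (adult), although fewer pubertal than adult cells of the class had a read (22.9% against 39.2%). The pubertal value rested on 35 cells, of which the highest had 2220 CPM, and with that cell and the highest adult one removed the levels were 97.9 (puberty) and 38.4 CPM (adult). Ccl7 was at 4.04 CPM in basal-marked and 1.39 CPM in luminal-marked cells, less than what 1 read in each cell would give.

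Cxcl12, the ligand of Cxcr4, was also read in cells with endothelial markers. It had reads in 15.8% of cells in puberty (10.7 to 22.1) and 23.0% in the adult (16.6 to 30.5), at 41.9 and 59.1 CPM, with 22.8% and 30.3% before thinning. A single cell held 44.8% of pubertal reads (cell 8, 3210 CPM) and another 39.3% of adult reads (cell 23, 3530 CPM). Their endothelial markers summed to 4500 and 2560 CPM, and both were classed as luminal-marked though their luminal markers summed to only 10 and 200 CPM. The next adult cell, number 24 (2890 CPM), was fibroblast-marked with a fibroblast sum of 27330 CPM. Of the 12 cells with endothelial markers, 9 had Cxcl12 reads, at 722 CPM together, against 16.2% of the 277 cells without other markers, at 14.6 CPM.

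Among cells without other markers Cxcl12 was a gene of basal-marked cells at a low level. It was read in 22.0% of those 109 cells (14.6 to 31.0) at 29.7 CPM (26.6 to 33.1), and in 8.33% of the 144 luminal-marked cells (4.38 to 14.1) at 1.94 CPM (1.29 to 2.81). The highest of them, pubertal cell 147, had 1190 CPM beside 27730 CPM of basal markers. Of all 62 cells with Cxcl12, 44 also had Cxcl14 (71.0%), and in adult basal-marked cells all 22 did, where 78 of 82 cells had Cxcl14 in any case.

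Cxcl14, a chemokine known from keratinocytes and other lining cells, marked the basal class. It had reads in 31.6% of cells in puberty (24.7 to 39.1) and 75.0% in the adult (67.3 to 81.7), or 39.2% and 87.5% before thinning. In basal-marked cells it was read in 89.6% (82.9 to 94.3) at 170 CPM, and in luminal-marked cells in 19.0% (13.2 to 26.0) at 10.6 CPM. No cell held more than 11.8% of the adult reads or 13.6% of the pubertal reads, and the highest cells, adult 49 (2440 CPM) and pubertal 66 (710 CPM), had basal markers of 47380 and 46750 CPM. The genes most like it were Krt14 (r = 0.76), Myh11 (0.74) and Acta2 (0.72), which encode a basal keratin and contractile proteins of myoepithelial cells, and within puberty alone the values were 0.70, 0.68 and 0.70. All 3 were among the markers of the basal class.

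The stage difference of Cxcl14 held inside both classes. In basal-marked cells it was read in 79.1% in puberty (64.0 to 90.0) and 95.1% in the adult (88.0 to 98.7), at 95.8 and 208 CPM. In luminal-marked cells it was read in 7.41% in puberty (3.25 to 14.1) and 44.0% in the adult (30.0 to 58.7), at 3.70 and 25.4 CPM. The median adult luminal-marked cell with a read had 10 CPM, or 1 read. In both adult cell sets described below the level was above that of puberty.

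Cxcl15, also called lungkine, a mouse chemokine for neutrophils, had the opposite pattern and followed the hormone-sensing luminal cells. It was read in 51.3% of these (41.8 to 60.7) at 367 CPM, in 16.3% of progenitor luminal cells (6.81 to 30.7) at 60.9 CPM, and in 8.00% of basal-marked cells (3.90 to 14.2) at 15.1 CPM. Over all cells the shares were 29.8% in puberty (23.1 to 37.3) and 23.0% in the adult (16.6 to 30.5), and 32.2% in each stage before thinning. The summed level was 93.7 (puberty) and 227 CPM (adult). The genes most like it were Stc2 (r = 0.57), Prlr (0.51), the prolactin receptor and a marker of the class, and Tlcd4 (0.50).

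Cells that read Cxcl15 did so at higher levels in the adult. Among hormone-sensing luminal cells 46.5% in puberty (35.7 to 57.6) and 65.5% in the adult (45.7 to 82.1) had a read, and the median of those cells was 245 (puberty) and 750 CPM (adult). Over all classes the highest pubertal cell had 950 CPM, and 10 adult cells reached 1000 CPM. Adult cell 217, with 9340 CPM, held 27.0% of the adult reads. With the highest cell of each stage left out, the log2 ratio of puberty over the adult was -0.91.

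**Figure D2:**
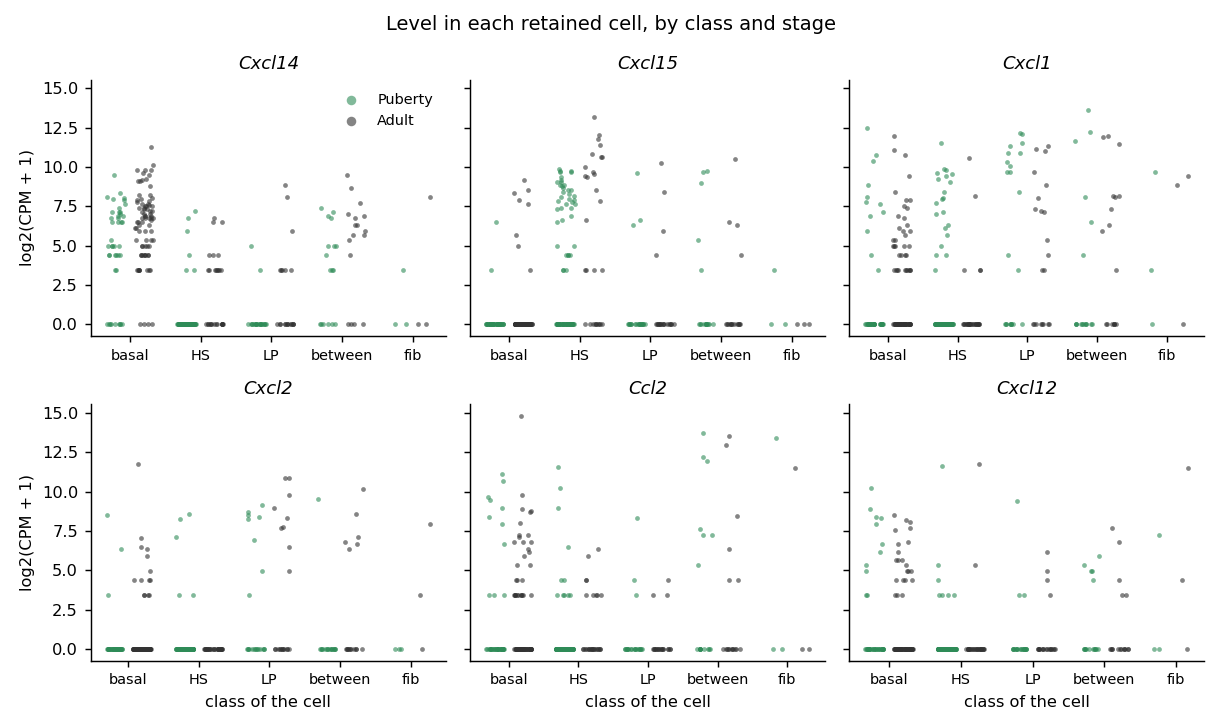
Level of 6 of the genes in each of the 323 retained cells (points), as log2(CPM + 1) after thinning, by class on the horizontal axis (basal, basal-marked; HS and LP, hormone-sensing and progenitor luminal-marked; between, neither; fib, fibroblast-marked) and by stage in colour. Cxcl14 fills the basal class. The highest points of Cxcl15 lie mostly in the hormone-sensing class, where many cells had no read, while those of Ccl2 and Cxcl12 are a few cells scattered over the classes.

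Cxcl1 and Cxcl2, neutrophil chemokines that act through Cxcr2 and lie side by side on chromosome 5, were highest among epithelial classes in progenitor luminal cells. Cxcl1 was read in 60.5% of these (44.4 to 75.0) at 737 CPM, against 22.6% of hormone-sensing cells (15.3 to 31.3) at 101 CPM. Cxcl2 was read in 39.5% (25.0 to 55.6) at 189 CPM, against 4.35% (1.43 to 9.85) at 7.48 CPM. The pattern was present in each stage: Cxcl2 was read in 8 of 22 pubertal and 9 of 21 adult progenitor cells, and in 5 of 86 and 0 of 29 hormone-sensing cells. A count of 0 in 29 cells allows a share of up to 10.3% by 3 counts of the total, and 11.9% by the exact binomial limit. None of the markers that define these cells is a chemokine.

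Cxcl1 had a second set of high cells with fibroblast markers. Of the 37 cells with such markers 21 read Cxcl1 (56.8%; 39.5 to 72.9), at 1118 CPM together, against 34.3% of the 277 cells without other markers, at 186 CPM. The highest cell of all, pubertal cell 149 with 12400 CPM, had a fibroblast sum of 14120 CPM and no luminal reads. The 3 highest pubertal Cxcl2 cells, at 740, 580 and 410 CPM, had no fibroblast, leukocyte or endothelial reads. Of the 37 cells 8 read Cxcl2, at 27.0 CPM together, below the 42.7 CPM of the cells without other markers.

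Cxcl1 and Cxcl2 were read together in 35 cells, which is 72.9% of the 48 cells with Cxcl2 and 28.9% of the 121 cells with Cxcl1. Among luminal-marked cells the overlap was 19 cells, 86.4% of those with Cxcl2. The genes most like Cxcl1 were Col3a1, a fibroblast collagen (r = 0.39), Cxcl2 (0.39) and Serping1 (0.36). Over all cells Cxcl1 was read in 31.6% in puberty (24.7 to 39.1) and 44.1% in the adult (36.0 to 52.4), at 379 and 228 CPM, and Cxcl2 in 9.94% (5.90 to 15.4) and 20.4% (14.3 to 27.7), at 24.6 and 80.6 CPM. Before thinning these shares were 35.1% and 56.6%, and 13.5% and 23.0%. Cxcl1 was thus read in more adult cells but at a lower sum, although the sum was 128 CPM in adult cells 48 to 188 and 468 CPM in the other 45 adult cells, above that of puberty. Where 5 reads were asked for the shares were 25.7% and 25.0%.

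Csf1, the growth factor of macrophages, differed most between the stages in the basal class. It was read in 14.0% of pubertal basal-marked cells (5.30 to 27.9) at 3.02 CPM and in 45.1% of adult ones (34.1 to 56.5) at 88.3 CPM. No pubertal basal-marked cell had more than 40 CPM. In luminal-marked cells the levels went the other way, 29.7 (puberty) and 6.40 CPM (adult), but 1 pubertal cell (number 164, 1700 CPM) held 53.0% of those reads, and the shares of cells with a read were 9.26% and 12.0%. Over all cells Csf1 was read in 11.1% in puberty (6.82 to 16.8) and 33.6% in the adult (26.1 to 41.7), at 25.3 and 107 CPM, or 17.5% and 40.1% before thinning. Adult cells 28 and 202, which were also high in Ccl2 and Ccl7, had 4020 and 3040 CPM. The genes most like it were Prss23 (r = 0.38), Aebp1 (0.37) and Nid1 (0.35), with lower values in puberty (0.16, 0.06 and 0.23) than in the adult (0.43, 0.45 and 0.46).

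Cx3cl1, also called fractalkine, had no class of its own. It was read in 18.1% in puberty (12.7 to 24.7) and 29.6% in the adult (22.5 to 37.5), at 19.5 and 57.7 CPM, with 22.8% and 40.8% before thinning. Its level was 36.8 CPM in basal-marked and 30.7 CPM in luminal-marked cells, and within the latter 30.7 CPM in both hormone-sensing and progenitor cells. The stages differed in direction, with 20.1 and 34.1 CPM in pubertal and 62.1 and 27.1 CPM in adult hormone-sensing and progenitor cells. Single cells decided much of each sum, with 35.3% of pubertal reads in cell 173 (1180 CPM) and 25.7% of adult reads in cell 77 (2250 CPM). No gene reached r = 0.3 with it.

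**Figure D3:**
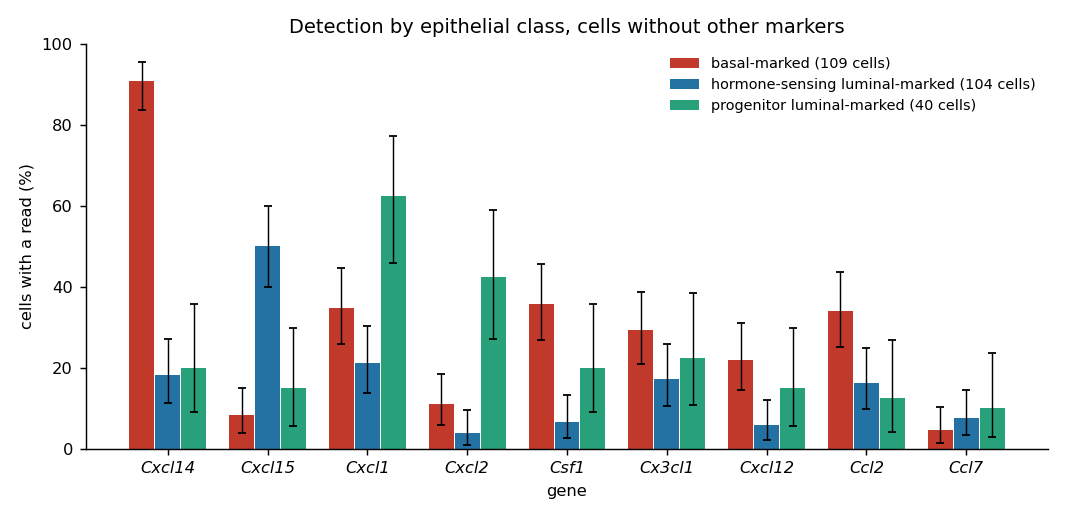
Share of cells with at least 1 thinned read of each gene (vertical axis, percent), over both stages, in the 109 basal-marked, 104 hormone-sensing luminal-marked and 40 progenitor luminal-marked cells without fibroblast, leukocyte or endothelial markers. Lines are 95% exact binomial intervals. Cxcl14 stands at 90.8% of basal-marked cells, Cxcl15 at 50.0% of hormone-sensing cells, and Cxcl1 and Cxcl2 are highest in progenitor cells, at 62.5% and 42.5%.

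The comparison of the basal-marked with the luminal-marked class asks which layer carries each transcript. Values are log2 ratios of the class sums in CPM with 1 CPM added to each, and genes were counted where the ratio was 2-fold or more and 1 class reached 20 CPM. Of the 9 genes 4 were higher in basal-marked cells, where 20.0% of the 7802 genes compared were: Ccl7 (4.05), Cxcl14 (3.88), Ccl2 (3.11) and Csf1 (1.36). Cxcl15 alone was lower (-4.14), where 22.5% of genes were. Cxcl1 (-0.69), Cxcl2 (-0.64), Cxcl12 (-0.33) and Cx3cl1 (0.25) stayed within 2-fold. The median of the 9 was 0.25 and that of all genes compared -0.06. Without adult cell 30, which had most of the Ccl7 reads of the class, the ratio of Ccl7 was -0.91, that of Ccl2 1.21 and that of Cxcl2 -2.71.

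Leaving out the 46 cells with other markers moved Cxcl1, Cxcl2, Cxcl12 and Ccl7 by more than 2-fold. In these 109 basal-marked and 144 luminal-marked cells 4 of 8 genes at the minimum were higher in the basal-marked class (20.8% of 7740 genes): Cxcl14 (3.90), Ccl2 (3.55), Cxcl12 (3.38) and Csf1 (1.39). The genes lower there were 3 (23.8% of genes): Cxcl15 (-4.0), Cxcl2 (-2.94) and Cxcl1 (-2.18). Cx3cl1 was at 0.23 and Ccl7 did not reach 20 CPM. Within each stage, over all cells of the 2 classes, Cxcl14 and Ccl2 were higher and Cxcl15 and Cxcl2 lower in basal-marked cells by 2-fold or more in puberty (23.1% of genes higher, 25.7% lower) and in the adult (29.2% and 27.3%), but Csf1 was lower in puberty (-2.93) and higher in the adult (3.59).

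**Figure D4:**
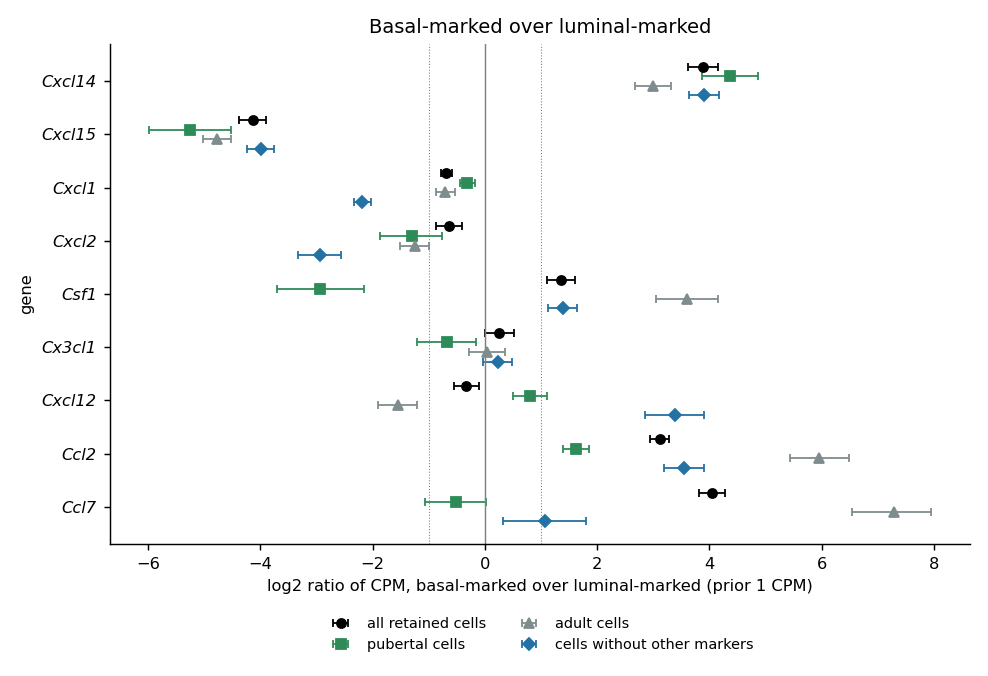
Log2 ratio of CPM in basal-marked over luminal-marked cells (horizontal axis, 1 CPM added to each) for the 9 genes, over all retained cells, within each stage, and over the cells without other markers; bars are 95% intervals from the Poisson limits of both sums and dotted lines mark 2-fold. Cxcl14 and Cxcl15 keep their side in all 4 settings, while Ccl7, Csf1, Cxcl12 and Cx3cl1 change sign between settings.

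The 6 fibroblast-marked cells, 3 of each stage, were compared with the other 317. Dcn and Lum, stromal matrix genes, were read in all 6, and Krt8, a luminal keratin, was too. Of the 9 genes 4 were 2-fold or more higher (21.9% of the 7674 genes compared): Cxcl12 (3.60), Ccl2 (3.04), Csf1 (2.04) and Ccl7 (1.36). Cxcl15 was lower (-5.91), as 47.8% of genes were, and the median of all genes was -0.84. The levels rested on few cells: Ccl2 was read in 2 of 6, with 10750 and 2940 CPM, and 94.4% of Cxcl12 reads came from 1 cell. With the highest cell of each gene left out on both sides, 2 genes were higher and 4 lower, where 5.33% of genes were higher and 77.7% lower and the median of all genes was -3.49.

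The comparison of the stages asks which of these transcripts differ between the growing and the mature gland. Over all retained cells none of the 9 was 2-fold or more higher in puberty (19.9% of the 7806 genes compared) and 6 were lower (14.3% of genes), with no replicate check. In log2 of puberty over the adult the values were -2.39 for Ccl7, -2.12 for Cxcl14, -2.03 for Csf1, -1.67 for Cxcl2, -1.52 for Cx3cl1 and -1.27 for Cxcl15. Ccl2 (-0.48) and Cxcl12 (-0.49) were within 2-fold, and Cxcl1 (0.73) was the only one above 0. The median of the 9 was -1.52 and that of all genes compared 0.09. Without adult cell 30 the values were -0.57 for Ccl7, 0.55 for Ccl2 and -1.19 for Cxcl2, so that 1 gene fewer was lower. Without the 46 cells with other markers 1 of 7 genes at the minimum was higher in puberty (21.0% of 7684 genes), Cxcl1 (1.01), and 5 were lower (15.9% of genes): Cxcl14 (-2.16), Cx3cl1 (-1.55), Csf1 (-1.33), Cxcl15 (-1.30) and Cxcl2 (-1.26).

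The adult cells fell into sets that also differed in these genes, with a log2 ratio of the first set over the second of -7.70 for Ccl7, -5.04 for Ccl2 and 0.48 for Cxcl14. The Ccl7 and Ccl2 values rest on few cells: adult cells 30, 28 and 202, the highest for both genes, were all in the second set. Ccl2 was read in 37 of 107 cells of the first set and 13 of 45 of the second, and Ccl7 in 7 and 4. The first set was chosen as the longest run of adult cell numbers in which every retained cell held a read of the small nuclear RNA Rn7sk. It spans cells 48 to 188, so that all 107 retained cells held such reads by choice, and 8 of the other 45 retained adult cells did. Against the 107 cells, 3 genes were higher in puberty (25.7% of 7787 genes), Ccl7 (3.57), Ccl2 (2.91) and Cxcl1 (1.56), and 3 were lower (15.5%), Cxcl14 (-2.25), Cx3cl1 (-1.82) and Csf1 (-1.33). Against the 45 cells none was higher (28.1% of 7871 genes) and 7 were lower (20.2%), from Ccl7 (-4.13) to Cxcl14 (-1.77). Only Cxcl14 and Csf1 were 2-fold or more lower in puberty against both sets. Cells with other markers were 11.2% of the 107 and 22.2% of the 45. The labels do not say what sets these numbers apart, and their part in the stage values was not tested.

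**Figure D5:**
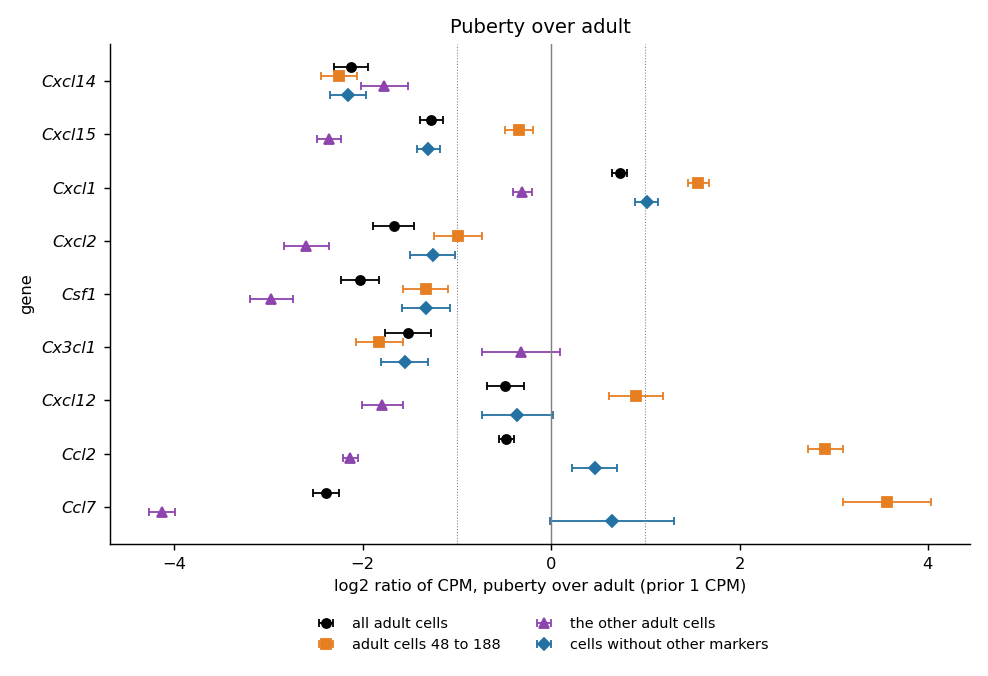
Log2 ratio of CPM in puberty over the adult (horizontal axis, 1 CPM added to each) for the 9 genes, against all adult cells, against adult cells 48 to 188, against the other adult cells, and over cells without other markers; bars are 95% intervals from the Poisson limits of both sums and dotted lines mark 2-fold. Cxcl14 lies left of the 2-fold line in all 4 settings, and Ccl2 and Ccl7 change side with the adult set.

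Within classes the stage values were -1.11 in basal-marked and -2.49 in luminal-marked cells for Cxcl14, -1.74 and -1.01 for Cx3cl1, -2.11 and -2.06 for Cxcl2, and -2.78 and -2.29 for Cxcl15. Over all cells of each class these 4 genes were therefore lower in puberty by 2-fold or more. So were 23.0% of 7541 genes in basal-marked and 20.0% of 7602 genes in luminal-marked cells. Cxcl15 was low in basal-marked cells, at 2.33 (puberty) and 21.8 CPM (adult). For Cxcl2, adult cell 30, with 3550 CPM, held most of the adult reads of the basal-marked class. The first adult set lacks that cell. Against its basal-marked cells Cxcl2 was at 10.7 (puberty) and 7.42 CPM (adult), a log2 ratio of 0.47, with neither level reaching 20 CPM. Among luminal-marked cells, adult cells 22 and 95 had 1880 and 1850 CPM of Cxcl2. In the hormone-sensing cells alone Cxcl2 was at 10.0 (puberty) and 0 CPM (adult). Csf1 was at -4.47 in basal-marked and 2.05 in luminal-marked cells. Ccl2 and Ccl7 were lower in puberty in the basal-marked class, at -1.36 and -4.67, where adult cell 30 held 88.6% and 99.1% of the adult reads. In the luminal-marked class their sums were higher in puberty, at 2.97 and 3.13. There pubertal cell 40, with a fibroblast sum of 15510 CPM, had 3040 CPM of Ccl2 and 1990 CPM of Ccl7. Ccl2 was read in 14 of 108 pubertal and 12 of 50 adult luminal-marked cells, and Ccl7 in 12 and 3 of them. Cxcl12 was at 1.38 in basal-marked cells (65.6 against 24.5 CPM), the only member 2-fold or more higher in puberty there, where 26.8% of genes were. That sum includes pubertal cell 147, with 1190 CPM, and Cxcl12 was read in 11 of 43 pubertal and 22 of 82 adult basal-marked cells. In luminal-marked cells Cxcl12 was at -0.98, where 28.0% of genes were higher. Cxcl1 was at 0.87 and 0.48.

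Of 13 genes in a list of chemokine and growth factor receptors 3 reached 20 CPM in a stage, and 2 of them were lower in puberty. For this and the lists that follow, the shares of all genes compared are those given above, 19.9% higher and 14.3% lower in puberty, and 20.0% higher and 22.5% lower in basal-marked cells. Ackr3, the scavenging receptor of Cxcl12, was read in 23.8% of cells, at 113 (puberty) and 140 CPM (adult), and at 1502 CPM in the fibroblast-marked cells against 99.7 CPM in the rest. Ackr1, a chemokine-binding receptor of vessel and red blood cells, was at 1.58 and 125 CPM but was read in 5 cells, and Ackr4 at 5.96 and 20.8 CPM in 11 cells. These were the 2 lower genes. Ackr4 was counted because it was in the list, and whether it binds any of the ligands described here was not tested. The signalling receptors named for these ligands, Ccr2, Cxcr2, Cxcr4, Csf1r and Cx3cr1, did not reach 20 CPM in either stage. For Cxcr4, the highest of the rest, the level was 4.21 CPM in each stage.

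Of 30 other chemokine and colony-stimulating ligands 8 reached 20 CPM, with 2 higher and 3 lower in puberty and a median of -0.28. The 3 highest were Cxcl16 (16.5 and 101 CPM in puberty and the adult, in 27.2% of cells), Cxcl17 (43.5 and 58.4 CPM) and Cxcl13 (74.8 and 14.7 CPM, in 11 cells). By class 2 of 8 were higher and 5 lower in basal-marked cells. Cxcl17 was at 2.48 CPM in basal-marked and 90.3 CPM in luminal-marked cells, and Cxcl13 at 0.080 and 79.4 CPM.

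Of 17 NF-kB pathway genes and targets 15 reached 20 CPM in a stage, with 1 higher and 3 lower in puberty and a median of -0.36. Nfkbia, the inhibitor that NF-kB itself induces, was at 652 (puberty) and 1576 CPM (adult), Icam1, an adhesion molecule, at 210 and 419 CPM, and Nfkbiz at 178 and 199 CPM. By class 1 of 17 was higher and 6 were lower in basal-marked cells. All 14 immediate early and heat shock genes, which rise when tissue is dissociated, reached 20 CPM, with none higher and 4 lower in puberty and a median of -0.65. Fos was at 1288 (puberty) and 2699 CPM (adult), Atf3 at 872 and 1132 CPM, and Egr1 at 743 and 1142 CPM. Against all adult cells the stage median was below 0 in all 5 lists. Against the first adult set described above it was above 0 for the receptors (0.13, from 1 gene), the other ligands (1.08) and the processing enzymes (0.47). There it was -0.06 for the NF-kB list and -0.75 for the immediate early and heat shock list. Against the other adult cells it was below 0 in all 5 lists. The part of these lists in the chemokine values was not tested.

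Of 6 enzymes that process these ligands 5 reached 20 CPM, with 1 higher in puberty and none lower. Adam10, which releases Cx3cl1 from the membrane, was at 110 (puberty) and 41.1 CPM (adult), and at 21.4 CPM in basal-marked and 127 CPM in luminal-marked cells. Mmp2, a gelatinase that can cut Cxcl12 and Ccl7, was at 87.0 and 168 CPM by stage, and at 180 CPM in basal-marked and 12.5 CPM in luminal-marked cells. Mmp14 was at 105 and 128 CPM by stage.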

How the data were processed

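Single-cell RNA was captured on the Fluidigm C1, its polyA RNA amplified, and libraries made with Nextera XT, without molecular identifiers. The authors mapped read pairs to mm10 with Subread and deposited raw counts per gene and cell, made with featureCounts and Rsubread's RefSeq annotation (versions and strand setting not given in the sources used here). The deposited file of each cell also gives gene length.

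Of 27179 identifiers 25275 matched GRCm38.p6 RefSeq genes, and unmatched ones held 1.84% of read pairs. As in the study's methods, 15 mitochondrial and 124 ribosomal protein genes and cells under 100000 read pairs or 1500 genes were left out. The cells left differ in number from those the study gives for the same limits, and the difference could not be traced. Retained cells had medians of 378701 (puberty) and 408360 (adult) read pairs. Counts were thinned to 100000 per cell (seed 1), summed per group and scaled to CPM. Log2 ratios used a prior of 1 CPM and a minimum of 20 CPM in 1 group. The intervals are 95% exact binomial (Clopper-Pearson) for shares and exact Poisson for sums, and cover counting error only.

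All members are named, with the 3 highest genes of each pathway list and the 3 genes most correlated with each member found in 20% or more of cells, where r was 0.3 or more. Members and lists were chosen with earlier results of these data known. A combined table held the same counts for all 444 cells and was not used. The ratio and calling steps were tested on simulated data. Alternatives included TMM scaling (edgeR 4.0.16, R 4.3.3). Python 3.11.15, numpy 2.4.6, pandas 2.3.3 and scipy 1.17.1 were used.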

Additional observations from a re-analysis of the deposited data

Results flagged for a closer look

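Cells that did not pass the filter on read pairs and genes enter no comparison, and reads of all 9 genes were present in them above the level that 3 reads would give (1.28 CPM over 50 pubertal and 1.24 CPM over 71 adult cells). Over the 50 pubertal cells the levels were 87.9 CPM for Cxcl12, 86.6 for Cxcl14, 53.4 for Cxcl1, 38.4 for Cxcl15, 25.2 for Ccl2, 22.6 for Cxcl2, 10.7 for Cx3cl1, 8.11 for Csf1 and 3.84 for Ccl7. Over the 71 adult cells they were 243 CPM for Cxcl14, 128 for Cxcl12, 109 for Cxcl2, 77.4 for Cxcl1, 46.5 for Ccl2, 46.5 for Csf1, 12.8 for Cx3cl1, 7.00 for Cxcl15 and 1.65 for Ccl7. Cxcl14 was thus higher in the adult here too. No group had between 4 and 10 samples, so single samples were not screened.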

How the results depend on the processing

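The labels give each stage as 1 sample, so no value has a replicate check, and leaving out replicates could not be done. No paired analysis was possible because cell numbers name single cells of a stage and do not pair them, and no result comes from a test. With 1 read worth 10 CPM, levels under that in a group rest on few cells. Age cannot be told apart from the sort or capture of each stage. Cxcl14 and Cxcl15 kept their sign in all 16 alternatives by class and all 15 by stage, as Cx3cl1 and Cxcl2 did by stage. TMM and median-of-ratios scaling reversed no value and moved no count by more than 1.5 times.

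The count of genes higher in puberty was 0, but it was 2 in cells with 200000 read pairs and 2500 genes, 3 against adult cells 48 to 188, 1 in basal-marked and 3 in luminal-marked cells alone, and 1 without the cells with other markers, by either cut-off. Of all genes compared, 21.0% to 28.0% were higher in puberty under these alternatives. The count higher in the adult was 6, and it was 3 in the deeper cells and 3 against adult cells 48 to 188, where 16.3% and 15.5% of genes were. The count higher in luminal-marked cells was 1. It was 2 without the highest cell of each gene and 2 without the cell with leukocyte markers, and it was 3 in the deeper cells, in each stage alone, with a class limit of 2 and without the cells with other markers by either cut-off, where 22.5% to 27.3% of genes were. In puberty alone 2 genes were higher in basal-marked and 2 in fibroblast-marked cells, against 4 in each comparison over both stages, and the latter count was also 2 without the highest cells. For Ccl7 the stage ratio turned to 2.64 in the deeper cells, 3.57 against adult cells 48 to 188, 3.13 in luminal-marked cells and 0.65 without the cells with other markers. Its class ratio turned to -0.89 in the deeper cells, -0.51 in puberty, -3.01 with a class limit of 2 and -0.91 without the cell with leukocyte markers. For Csf1 the stage ratio turned to 2.05 in luminal-marked cells, and the class ratio to -2.93 in puberty and -0.54 without adult cells 48 to 188. The cause was not tested. The cut-offs on other markers were chosen after seeing the data.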
